A study of Mus musculus with 6 samples.

Results

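The 10 genes described here encode secreted proteins of the airway and lung: the secretoglobins Scgb1a1, Scgb3a1 and Scgb3a2, the BPI-fold proteins Bpifa1, Bpifa2 and Bpifb1, and the surfactant proteins Sftpa1, Sftpb, Sftpc and Sftpd. They were chosen by name, as the rows carrying these symbols, from the 20443 genes of the deposited tables. All 10 were found. All 10 also passed the filter for testing, a mean of at least 0.5 FPKM (fragments scaled to transcript length and to the mapped total) over the 6 libraries, as did 15720 genes in all.

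The RNA came from medullary thymic epithelial cells (mTECs) sorted by flow cytometry from C57BL/6 mice aged 4 weeks. All mice carried floxed alleles of Jmjd3 (Jmjd3 fl/fl), the gene of an H3K27 demethylase whose symbol is Kdm6b. The 3 control libraries (Con_253, Con_261 and Con_264) came from Jmjd3 fl/fl mice for which the protocol names no Cre. The 3 Jmjd3-deficient libraries (cKO_262, cKO_263 and cKO_265) came from Jmjd3 fl/fl mice with Foxn1-cre. Because no Cre is named for the controls, the effect of the deletion and that of the Cre transgene cannot be told apart. Foxn1-cre acts in all thymic epithelium and not only in mTECs, so effects of deletion in mTECs and in other thymic epithelium cannot be told apart either. The labels number the libraries but do not say that each is 1 mouse, so the p-values below measure the spread between these libraries.

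mTECs transcribe genes of peripheral organs and show the products to developing thymocytes, which removes T cells that would attack those organs. Airway proteins are among these tissue-restricted antigens. In the lung, secretoglobins are small secreted proteins made mainly by club cells of the bronchioles, and BPI-fold proteins are lipid-binding proteins of mucosal fluids related to the bactericidal/permeability-increasing protein. Surfactant is the film of lipid and protein made by alveolar type 2 cells. Its hydrophobic proteins B and C spread the lipid, and its proteins A and D are collectins, secreted lectins that bind microbial sugars. Nkx2-1 and forkhead factors are textbook regulators of many of these genes in lung.

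RefSeq promoter sequences (build GRCm38.p6, the same assembly as mm10) of 6 of the 10 genes were searched. The promoters of Scgb1a1, Scgb3a2, Sftpc and Sftpd were not searched, so the counts of matches do not cover them. The 250 bases before the start are printed for 4 of the 6 genes searched. Scgb3a1, Bpifa2 and Sftpa1 are shown because the 2 groups did not overlap in their transcript levels, and Bpifa1 because it was the most abundant of the 10. Capitals mark matches, on either strand, to any of 4 motifs. The Nkx2-1 motif was searched as CTCAAG. The forkhead motif was searched as TNTTTAC. For the C/EBP family the letters were TTGCNNAA. The core promoter box was searched as TATAAA.
Scgb3a1, chr11:49663345-49663594, plus strand: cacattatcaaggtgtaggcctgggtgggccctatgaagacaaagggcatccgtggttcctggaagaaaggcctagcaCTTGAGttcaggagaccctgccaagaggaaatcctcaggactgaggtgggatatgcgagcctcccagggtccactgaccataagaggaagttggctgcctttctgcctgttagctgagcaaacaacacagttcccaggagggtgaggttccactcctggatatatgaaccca
Bpifa2, chr2:154008026-154008275, plus strand: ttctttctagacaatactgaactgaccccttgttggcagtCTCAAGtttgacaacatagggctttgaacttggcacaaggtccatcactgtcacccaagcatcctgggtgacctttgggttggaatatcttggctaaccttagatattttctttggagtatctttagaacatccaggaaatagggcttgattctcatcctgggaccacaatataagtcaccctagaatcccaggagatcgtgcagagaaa
Sftpa1, chr14:41131538-41131787, plus strand: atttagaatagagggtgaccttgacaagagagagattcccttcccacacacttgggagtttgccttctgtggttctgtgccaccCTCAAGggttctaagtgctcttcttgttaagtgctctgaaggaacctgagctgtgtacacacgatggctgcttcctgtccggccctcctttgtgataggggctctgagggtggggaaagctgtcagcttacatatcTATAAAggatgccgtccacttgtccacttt
Bpifa1, chr2:154142630-154142879, plus strand: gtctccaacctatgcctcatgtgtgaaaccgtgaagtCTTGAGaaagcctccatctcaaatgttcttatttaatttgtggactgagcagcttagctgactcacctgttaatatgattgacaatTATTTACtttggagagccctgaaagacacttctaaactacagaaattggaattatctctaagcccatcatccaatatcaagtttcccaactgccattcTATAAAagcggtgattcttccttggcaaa

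The letters CTCAAG were found in the 250 upstream bases of 5 of the 6 genes searched (Scgb3a1, Bpifa1, Bpifa2, Sftpa1 and Sftpb, which held 2 matches), and in 13.3% of 32851 promoters of the same length. The exception was Bpifb1, in neither of whose 2 promoters they occurred. The forkhead letters lay 127 bases before the start of Bpifa1 and 110 bases before the second start of Bpifb1, and in 10.9% of all promoters. TATAAA lay 29 bases before the start of Bpifa1 and 30 before that of Sftpa1, and in 12.4% of all promoters, while the C/EBP letters were in 0 of the 6 and in 9.56% of all. The motifs were chosen after the promoter sequences had been seen, no 2 matches overlapped, and a match is a string of letters, not a measured binding site.

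Of the libraries, the summed FPKM averaged 503908 ± 41114 for controls against 619346 ± 31808 for deficient libraries (SD, n = 3 each), and no counts were available, so depth is unknown. Genes listed at 0 numbered 1813 in Con_253, 905 in Con_261 and 854 in Con_264. They numbered 1635 in cKO_262, 1632 in cKO_263 and 1793 in cKO_265. Detection thus differed between libraries, and its part in the values of genes near 1 FPKM was not tested. cKO_265 scored 53.02 on the first principal component, where the other libraries scored -22.7 to 7.42. Con_253 was the library with Y-linked transcripts (summed level 12.6 FPKM, against at most 0.110 FPKM elsewhere), so the groups were not matched for sex by these genes. Values without either or both of these libraries are given for some of the genes. The mTEC markers were present in every library, with a summed level of 6868 to 8016 FPKM in the controls and 6999 to 8606 FPKM in the deficient libraries over the 13 listed genes found. Ccl19 was the 1 marker listed at 0 in all 6. Kdm6b itself was at 9.998 to 18.1 FPKM in the controls and 8.67 to 11.6 FPKM in the deficient libraries (difference of log2(FPKM + 1) -0.45, SE 0.23, limma adjusted p = 0.418), and the value does not check the labels because the deleted part of the gene is not stated.

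Bpifa1 averaged 88.4 FPKM in control mTECs, above 94.3% of tested genes, and Scgb3a2 averaged 0.729 FPKM, above 4.96%. FPKM is per length of transcript, so levels of different genes were set side by side. The amplification of cDNA before library preparation can still favour some transcripts by length and base composition, a limit on any order of genes. In the controls the order was Bpifa1, then Sftpd and Scgb1a1, then Bpifb1, then Sftpa1, Scgb3a1, Sftpc, Bpifa2, Sftpb and Scgb3a2. Bpifa1 lay above Sftpd, Scgb1a1 above Bpifb1, and Bpifb1 above Sftpa1 without overlap between libraries. The ranges of Sftpd and Scgb1a1 overlapped, and so did those of every neighbouring pair from Sftpa1 downwards. In the deficient libraries Scgb1a1 came second, with a range that overlapped those of Bpifa1 and Sftpd. It was the most abundant of the 10 genes in cKO_265, and Bpifa1 was the most abundant in the other 5 libraries. Bpifb1 ranked 4 of 10 in all 6 libraries.

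**Figure D1:**
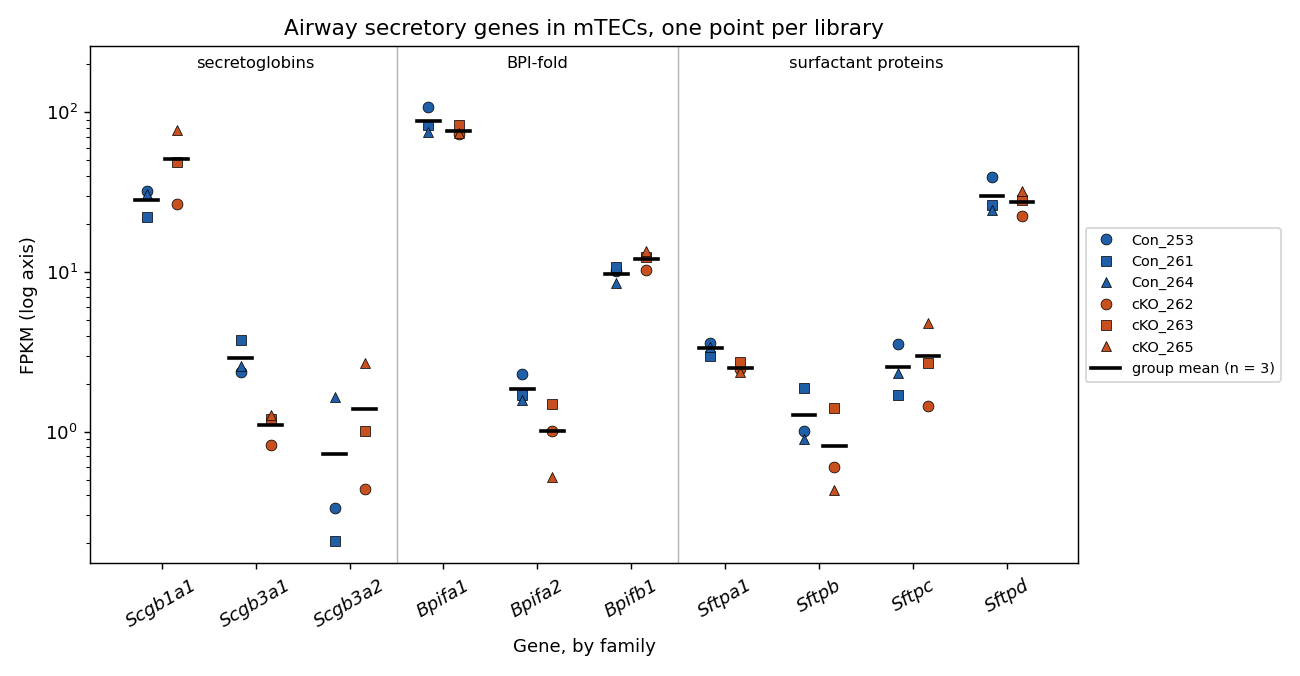
FPKM (vertical log axis) of the 10 genes, grouped by family along the horizontal axis; each point is a library, blue for control and orange for Jmjd3-deficient, and bars are group means (n = 3). Bpifa1 lies highest in 5 of the libraries, and the 2 groups are separate for Scgb3a1, Bpifa2 and Sftpa1.

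Jmjd3-deficient mTECs were compared with control mTECs for each gene. Of the 10 genes, 0 changed at an adjusted p under 0.05 (limma on log2(FPKM + 1), Benjamini-Hochberg over 15720 genes), where 0.0763% of all tested genes did. At an unadjusted p under 0.05, 2 of the 10 were lower (Scgb3a1 and Bpifa2; 7.82% of all tested genes) and 0 were higher (6.81%). Scgb3a1 stayed under this p in each of its 14 alternatives and Bpifa2 in 3 of 14, and without Con_253 the p of Bpifa2 was 0.142 (limma, unadjusted). The 2 groups did not overlap for 3 genes with lower values in the deficient libraries (Scgb3a1, Bpifa2 and Sftpa1; 11.9% of all tested genes) and for 0 with higher values (9.59%). The lower count was 2 under quantile normalization (9.81% of all tested genes) and under median centring (8.12%). The median difference of the 10 was -0.15 on the log2 scale, beside -0.04 over all tested genes, with 4 above and 6 below 0. Of all 15720 tested genes, 8597 lay below 0. In bulk RNA, fewer cells of a kind and less RNA per cell cannot be told apart. All differences below are deficient minus control in log2(FPKM + 1), which understates the change of genes near or below 1 FPKM.

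Levels are listed in the order Con_253, Con_261, Con_264, then cKO_262, cKO_263, cKO_265. The 3 secretoglobins had differences of both signs. Scgb1a1 encodes the club cell secretory protein, the most abundant secretoglobin of the bronchioles (chromosome 19 from 9083642 to 9087956). It was at 32.3, 22.02 and 30.8 FPKM in control libraries, against 26.8, 49.1 and 77.6 FPKM in deficient ones. cKO_263 and cKO_265 lay above every control, and cKO_262 lay within the control range. The mean was 28.4 ± 5.56 FPKM over controls against 51.2 ± 25.4 FPKM over deficient libraries (SD, n = 3 each). The difference was 0.72 (SE 0.34, 95% interval -0.06 to 1.50) and did not pass (limma adjusted p = 0.372). Without cKO_265 it was 0.36.

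Scgb3a1 is a secretoglobin of the larger airways and of other secretory epithelia (chromosome 11 from 49663595 to 49665118, 2 rows summed, of which 1 was at most 2.07e-05 FPKM). It was at 2.38, 3.77 and 2.56 FPKM in control libraries, against 0.822, 1.20 and 1.27 FPKM in deficient ones. Every deficient library lay below every control. The mean was 2.90 ± 0.757 FPKM over controls against 1.10 ± 0.239 FPKM over deficient libraries (SD, n = 3 each). Its difference of -0.89 (SE 0.20, 95% interval -1.34 to -0.43) had the smallest p of the 10 genes (unadjusted 0.00187), but the adjusted p was 0.127 (limma). With each library scaled to the same summed FPKM, the difference was -1.28 and passed (limma adjusted p = 0.0439), where the median of all genes was -0.30.

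Scgb3a2, a secretoglobin of club cells and early airway epithelium, was at 0.332, 0.206 and 1.65 FPKM in control libraries, against 0.440, 1.01 and 2.71 FPKM in deficient ones. Con_264 and cKO_265 were high in their groups, and the groups overlapped. The difference was 0.45 (SE 0.40, 95% interval -0.46 to 1.35, limma adjusted p = 0.649), and it was -0.07 without Con_253 and cKO_265. The summed FPKM of the 3 secretoglobins averaged 32.01 ± 5.21 for controls against 53.6 ± 26.8 for deficient libraries (SD, n = 3 each, a difference of 21.6, and 7.69 without cKO_265), with 84.7% to 95.7% of it from Scgb1a1.

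**Figure D2:**
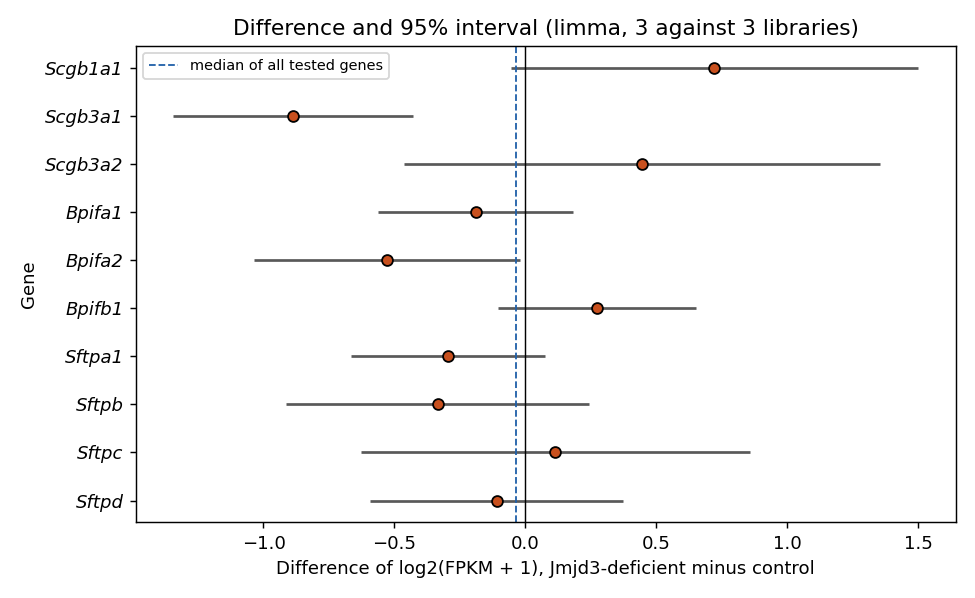
Difference of log2(FPKM + 1), Jmjd3-deficient minus control (horizontal axis), for each of the 10 genes; points are the estimates and lines the 95% intervals of the limma fit (n = 3 against 3), and the dashed line is the median of all tested genes. The interval lies wholly below 0 for Scgb3a1 and Bpifa2 and spans 0 for the other 8 genes, before adjustment for the number of genes tested.

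The 3 BPI-fold genes lie within 212.1 kb of chromosome 2. Bpifa1 encodes a secreted protein of nasal and tracheal mucus that acts on epithelial sodium channels and on bacteria (154142880 to 154149217). It was at 107.3, 82.9 and 74.9 FPKM in control libraries, against 72.5, 83.0 and 74.3 FPKM in deficient ones. Con_253 was the high library, and the others lay close together in both groups. The difference was -0.19 (SE 0.16, 95% interval -0.56 to 0.18, limma adjusted p = 0.636), and -0.04 without Con_253. The mean was 88.4 ± 16.9 FPKM for controls and 76.6 ± 5.58 FPKM for deficient libraries (SD, n = 3 each).

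Bpifb1, a long BPI-fold protein of airway goblet and gland cells (154190818 to 154220343), was at 10.1, 10.7 and 8.55 FPKM in control libraries, against 10.3, 12.4 and 13.5 FPKM in deficient ones. The groups overlapped through Con_261 and cKO_262. The mean was 9.77 ± 1.10 FPKM over controls against 12.05 ± 1.62 FPKM over deficient libraries, a difference of 0.27 (SE 0.17, 95% interval -0.11 to 0.65, limma adjusted p = 0.489). With equal summed FPKM per library the difference was -0.00018, but that scaling lowered the median of all genes to -0.30. Relative to the median of all genes Bpifb1 was at 0.31 as deposited and at 0.30 with equal totals.

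Bpifa2 is the parotid secretory protein, made chiefly by salivary glands (154008276 to 154016073). It was at 2.30, 1.70 and 1.58 FPKM in control libraries, against 1.01, 1.50 and 0.524 FPKM in deficient ones. The groups did not overlap, although cKO_263 lay close to Con_264. The difference was -0.53 (SE 0.22, 95% interval -1.04 to -0.02, limma adjusted p = 0.325), and -0.23 without Con_253 and cKO_265. The summed FPKM of the BPI-fold trio averaged 99.996 ± 17.8 for controls against 89.6 ± 6.60 for deficient libraries (SD, n = 3 each). That difference of -10.4 was -0.505 without Con_253 and 0.181 without Con_253 and cKO_265.

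The surrounding gene cluster on chromosome 2 holds 13 Bpif genes over 445.6 kb, and Bpifa1 stood out among them. The next in control mTECs were Bpifb1 and, 19.7 kb beyond the start of Bpifa1, Bpifa5, at 5.28 to 6.25 FPKM. Bpifa3, whose start lies 12.5 kb before that of Bpifa1, was at 0.121 to 0.595 FPKM in the controls. It was listed at 0 in cKO_263 and was at 0.196 and 0.402 FPKM in the other deficient libraries. The nearest starts on both sides of Bpifa1 thus belonged to genes with no library above 6.25 FPKM. Bpifa5 was at 3.32 to 4.52 FPKM in the deficient libraries, below every control (difference -0.45, SE 0.17, 95% interval -0.84 to -0.05, limma adjusted p = 0.281). For the remaining cluster genes other than Bpifa2, control means ran from 0.911 FPKM (Bpifb4) to 3.84 FPKM (Bpifb9b).

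**Figure D3:**
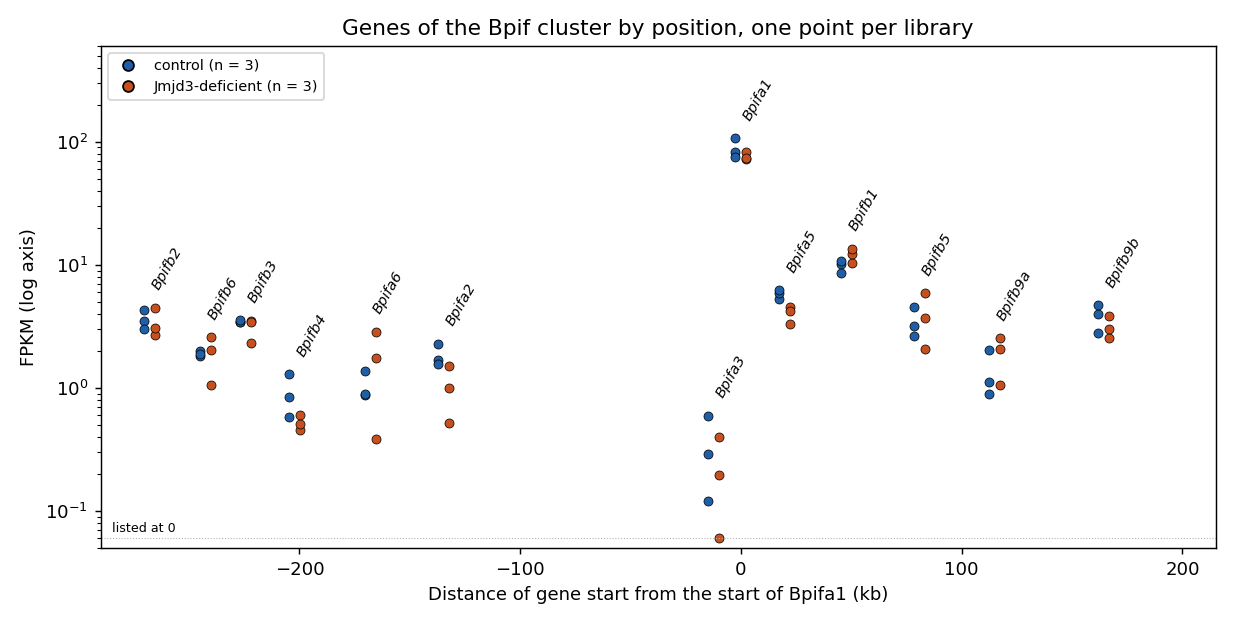
FPKM (vertical log axis) of the 13 genes of the Bpif cluster by the distance of each gene's start from that of Bpifa1 (horizontal axis, kb); each point is a library, blue for control and orange for Jmjd3-deficient (n = 3 each), and the dotted line holds the value listed at 0. Bpifa1 stands above its neighbours in both groups, and Bpifb1 is second.

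The surfactant collectins Sftpa1 and Sftpd lie within 53.4 kb of chromosome 14, with the mannose-binding lectin gene Mbl1 between them. Sftpd, surfactant protein D (41172212 to 41185198, minus strand), is also made by mucosal epithelia outside the lung. It was at 39.3, 26.4 and 24.6 FPKM in control libraries, against 22.3, 28.2 and 31.9 FPKM in deficient ones. The groups overlapped over most of their range, with a difference of -0.11 (SE 0.21, 95% interval -0.59 to 0.37, limma adjusted p = 0.855). The sign was the opposite without Con_253 (0.09) or without cKO_262 (0.03), and the value was -0.02 without both Con_253 and cKO_265.

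Sftpa1, surfactant protein A (41131788 to 41136373, plus strand), was at 3.58, 2.995 and 3.39 FPKM in control libraries, against 2.46, 2.72 and 2.37 FPKM in deficient ones. The 2 groups did not overlap, and the spread within each was narrow. The mean was 3.32 ± 0.298 FPKM over controls against 2.52 ± 0.181 FPKM over deficient libraries, a difference of -0.30 (SE 0.16, 95% interval -0.67 to 0.08, limma adjusted p = 0.445). Between these collectins, Mbl1 was at 0.558, 0.597 and 0.545 FPKM in control libraries, against 1.14, 1.06 and 4.29 FPKM in deficient ones. Its difference of 0.87 (SE 0.34, limma adjusted p = 0.291) had the opposite sign to that of Sftpa1, and Mbl1 was named by its position after its values had been seen.

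Sftpb encodes the surfactant protein without which alveoli collapse at birth (chromosome 6 from 72303248 to 72314370, a locus that begins upstream of the RefSeq start). It was at 1.02, 1.88 and 0.901 FPKM in control libraries, against 0.601, 1.40 and 0.431 FPKM in deficient ones. cKO_263 lay above Con_253 and Con_264, and the difference was -0.34 (SE 0.25, 95% interval -0.91 to 0.24, limma adjusted p = 0.584). Sftpc, the membrane peptide that marks alveolar type 2 cells (chromosome 14 from 70520942 to 70524081), was at 3.55, 1.71 and 2.33 FPKM in control libraries, against 1.45, 2.70 and 4.76 FPKM in deficient ones. The deficient range enclosed the control range, and the difference was 0.11 (SE 0.33, 95% interval -0.63 to 0.86, limma adjusted p = 0.905). It was -0.20 without cKO_265 and -0.06 without Con_261. The 4 surfactant genes summed to 37.2 ± 8.91 FPKM over controls against 33.8 ± 6.42 FPKM over deficient libraries, of which Sftpd held 78.8% to 83.2%. That difference of -3.41 was 1.71 without Con_253 and 0.0652 without cKO_262.

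A ratio of 2 genes within a library does not depend on the scaling between libraries. The most abundant gene of each family was therefore set against each of the others, which gave 7 ratios, chosen after the levels had been seen. Scgb1a1 was 13.6, 5.84 and 12.004 times Scgb3a1 in the controls and 32.6, 41.1 and 61.2 times Scgb3a1 in the deficient libraries. Every deficient ratio exceeded every control ratio, and the difference of log2 ratios was 2.14. Under quantile normalization, which is not 1 factor per library and so can change ratios, it was 1.86. The ratio of Scgb1a1 to Scgb3a2 overlapped between groups. Of all genes set against Scgb1a1 in this way, 15.0% gave groups that did not overlap.

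Bpifa1 was 46.8, 48.8 and 47.5 times Bpifa2 in the controls and 71.9, 55.3 and 141.6 times Bpifa2 in the deficient libraries. Bpifa1 was 10.6, 7.77 and 8.76 times Bpifb1 in the controls and 7.05, 6.71 and 5.50 times Bpifb1 in the deficient libraries. The difference of log2 ratios was 0.79 to Bpifa2, 0.40 without cKO_265 and 0.38 under quantile normalization. To Bpifb1 it was -0.49, -0.26 without Con_253 and cKO_265, and -0.68 under quantile normalization. Neither ratio overlapped between groups, and the differences had opposite signs (18.4% of all genes set against Bpifa1 gave groups that did not overlap). The ratios of Sftpd to Sftpa1, Sftpb and Sftpc all overlapped between groups (11.0% of all genes set against Sftpd did not). In all, 3 of the 7 ratios were separate. With 3 against 3 libraries an exact permutation test cannot give a 2-sided p below 0.1, and none was run on these chosen ratios.

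**Figure D4:**
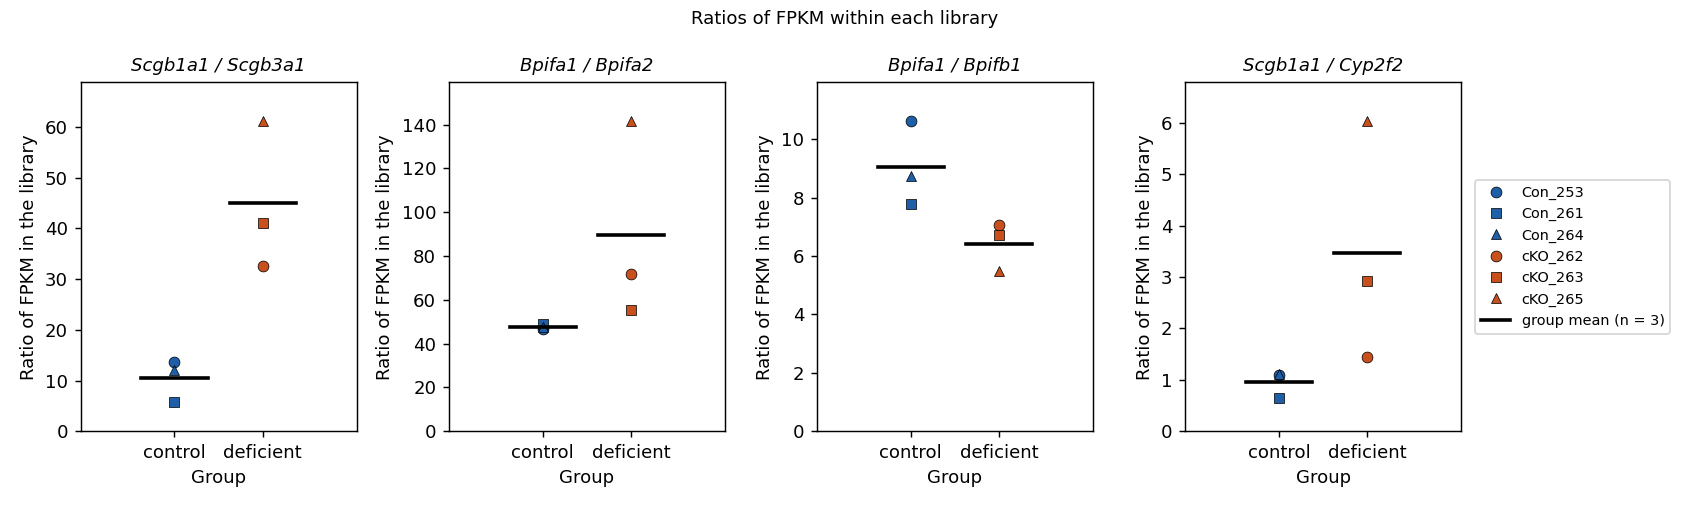
Ratios of FPKM within each library (vertical axes, from 0) by group (horizontal axes): Scgb1a1 to Scgb3a1, Bpifa1 to Bpifa2, Bpifa1 to Bpifb1, and Scgb1a1 to the club cell cytochrome gene Cyp2f2; points are libraries and bars group means (n = 3). In each panel the 2 groups are separate, upwards in the deficient libraries for 3 ratios and downwards for Bpifa1 to Bpifb1.

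Other genes of the same families and pathways were read from lists. Of all tested genes, 7.82% were lower and 6.81% higher at an unadjusted p under 0.05 (limma), shares that stand beside each list below. Of 23 other secretoglobins 17 were in the tables, 5 passed the filter, and 3 were listed at 0 in all 6 libraries. Of the 5 tested, 0 passed at an adjusted p under 0.05 (limma) and 3 were lower at an unadjusted p under 0.05. Those lower genes (Scgb1b27, Scgb2b27 and Scgb2b26) averaged 0.110 to 0.296 FPKM in deficient libraries, so they passed the filter only through the controls. Genes left out by the filter differed in both directions, such as Scgb1b7 (mean 0.097 FPKM in controls against 0.864) and Scgb1b30 (0.614 against 0). The list's median was -0.68, and -0.14 without the filter, so the count of 3 depends on the filter. The smallest p was that of Scgb1b27, an androgen-binding protein gene, whose control libraries held 0.843, 0.788 and 1.83 FPKM. It was at 0.330 FPKM in cKO_263 and was listed at 0 in the other deficient libraries (limma adjusted p = 0.152). Next was Scgb2b27, with a difference of -0.75 (limma adjusted p = 0.253). These genes have close copies, and how shared reads were assigned is not given. The most abundant was Scgb1c1, a secretoglobin of olfactory mucosa, at 5.94 to 6.62 FPKM in the controls and 2.24 to 7.68 FPKM in the deficient libraries.

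Of 14 other genes of the BPI-fold superfamily 13 were tested, and 0 passed (limma), with 3 lower and 0 higher at an unadjusted p under 0.05. The lipopolysaccharide-binding protein gene Lbp was at 6.53, 5.76 and 6.56 FPKM in control libraries, against 4.15, 3.43 and 2.71 FPKM in deficient ones (difference -0.73, SE 0.18, limma adjusted p = 0.152). Bpifc was at 6.44, 6.77 and 7.72 FPKM in control libraries, against 4.85, 3.54 and 3.29 FPKM in deficient ones (difference -0.72, SE 0.18, limma adjusted p = 0.162). Neither gene overlapped between groups, and both lie outside the chromosome 2 cluster. The list's median was -0.16, and it ran from -0.50 (mean of at least 5 FPKM) to -0.05 (quantile normalization) over the alternatives.

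Genes of surfactant processing and lipid supply were also measured. Of 19 listed 16 were tested and 0 passed (limma), with 1 higher and 4 lower at an unadjusted p under 0.05 and a median of -0.11. Ctsh, a cathepsin that trims surfactant protein precursors and works in lysosomes of many cells, was at 657.9, 620.3 and 560.5 FPKM in control libraries, against 739.5, 968.3 and 1390 FPKM in deficient ones. Its difference was 0.71 (SE 0.23, limma adjusted p = 0.223), and 0.24 under quantile normalization (unadjusted p = 0.224). The ETS factor gene Etv5 had a difference of -0.51 (limma adjusted p = 0.227). Etv5 is also on the airway transcription factor list below and is counted as lower in both. Lamp3, a lamellar body protein, was below the filter and was not tested, at 0.311 to 0.328 FPKM in the controls and 0.433 to 0.665 FPKM in the deficient libraries.

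Of 20 airway transcription factor genes 17 were tested and 0 passed (limma), with 5 lower and 0 higher at an unadjusted p under 0.05, and 14 of 17 differences below 0 (median -0.31). Of all tested genes, 7.82% were lower and 6.81% higher at that p, and 8597 of 15720 had a difference below 0. The epithelial ETS factor gene Elf3 was at 131.7, 130.5 and 95.6 FPKM in control libraries, against 86.6, 79.9 and 65.9 FPKM in deficient ones (difference -0.61, SE 0.18, limma adjusted p = 0.190). It passed with equal summed FPKM per library (-0.91, limma adjusted p = 0.0399). That scaling, chosen after the data were seen, called 10 genes higher and 197 lower in all. Nkx2-1, the lung and thyroid regulator, was at 0.285 to 0.527 FPKM in the controls and 0.254 to 0.419 FPKM in the deficient libraries and was not tested. Foxa1 was at 14.7 to 19.4 and 15.9 to 18.4 FPKM, and Foxa2 at 1.30 to 3.23 and 0.819 to 1.66 FPKM.

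**Figure D5:**
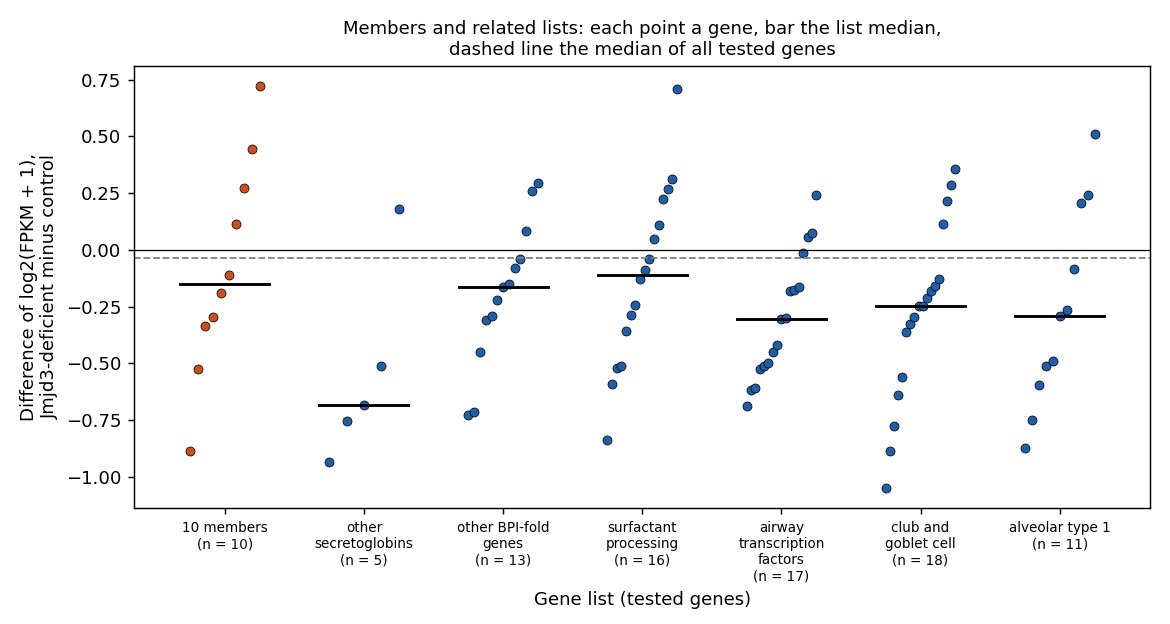
Difference of log2(FPKM + 1), Jmjd3-deficient minus control (vertical axis), for the tested genes of each list (horizontal axis); each point is a gene, solid bars are list medians and the dashed line is the median of all tested genes (-0.04). Scgb1a1 is the top point among the 10 members and Ctsh the top point of the surfactant processing list; all list medians shown lie below 0.

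Markers of cells that express the 10 genes in the body were read beside them. Of 18 tested genes of club and goblet cells 0 passed (limma), with 1 higher and 4 lower at an unadjusted p under 0.05 and a median of -0.25. Cyp2f2, the cytochrome of club cells, was at 29.5, 33.8 and 27.6 FPKM in control libraries, against 18.5, 16.8 and 12.9 FPKM in deficient ones. Every deficient library lay below every control. It had a difference of -0.88 (SE 0.17, limma adjusted p = 0.118) and the mucin gene Muc5ac -1.05 (limma adjusted p = 0.119). Both passed with equal summed FPKM per library, at -1.19 and -1.46, under a scaling that called 10 genes higher and 197 lower in all. Scgb1a1, of the same cell type in lung, had a positive difference. The ratio of Scgb1a1 to Cyp2f2 was 1.10, 0.652 and 1.12 for control libraries, against 1.44, 2.93 and 6.03 for deficient ones, without overlap. The difference of its log2 was 1.67, and 1.15 without cKO_265. This pair was chosen after its values had been seen. Alveolar type 1 markers had a median of -0.29 over 11 tested genes, with the smallest p for Vegfa (-0.75) and Rtkn2 (-0.60), with 0 passing (limma) and 2 lower at an unadjusted p under 0.05. The 7 tested ciliated cell genes, with the smallest p for Dynlrb2 (-0.65) and Rsph1 (-0.40), had a median of -0.31, and 0 passed (limma, 1 lower at an unadjusted p under 0.05). The 8 tested salivary genes other than Bpifa2, with the smallest p for Dcpp2 (-0.68) and Dcpp1 (0.32), had a median of -0.01, and 0 passed (limma, 1 lower at an unadjusted p under 0.05).

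Markers of other cells that a sort can hold were read in the same way, controls first, and the 2 genes with the smallest p are named. The 12 thymocyte markers summed to 59.1 to 94.5 FPKM in the controls and 41.7 to 52.6 FPKM in the deficient libraries, and all 9 tested had negative differences, with the smallest p for Cd3e (-1.06) and Cd3g (-0.80). The 11 macrophage and dendritic cell markers found summed to 362.4 to 409.2 and 296.6 to 323.2 FPKM, with Aif1 (1.46) and Lyz2 (-0.40). B-cell markers summed to 81.1 to 94.3 and 84.1 to 87.01 FPKM, with Pax5 (-0.44) and Cd79a (-0.42). Endothelial markers summed to 16.8 to 23.2 and 14.4 to 22.8 FPKM, with Pecam1 (-0.55) and Tek (-0.33). Fibroblast markers summed to 36.4 to 45.6 and 33.6 to 39.9 FPKM, with Col1a1 (-0.55) and Dcn (-0.25). Of the red blood cell list only Alas2 was tested (-0.10), and among cortical epithelial genes they were Tbata (0.58) and Dll4 (-0.37). Among mTEC markers they were Cd40 (0.43) and Aire (0.40). Apart from Pax5 in cKO_265 and Ccl19, none of these markers found in the tables was listed at 0. In each list 0 passed at an adjusted p under 0.05 (limma). Aif1 (adjusted p = 0.0555) passed under 6 of 15 alternatives, with a difference of 1.26 to 1.71, and Lyz2 under 2 of 15. At an unadjusted p under 0.05, 5 thymocyte markers and 1 endothelial marker were lower, 1 mTEC marker was higher, and the macrophage and cortical lists each had 1 higher and 1 lower, beside 0 of the B-cell, fibroblast and red cell markers. Of all tested genes, 7.82% were lower and 6.81% higher at that p, and 8597 of 15720 had a difference below 0. The part of these markers in the results on the 10 genes was not tested.

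The genes whose pattern over the 6 libraries was most like that of each family's most abundant member were found among 8624 named genes of at least 5 FPKM. For Scgb1a1 they were Taf9, a subunit of the general transcription factor TFIID (Pearson r = 0.992 of log2(FPKM + 1), 6 libraries), and Tma16 (r = 0.992). Both were highest in cKO_265, where Taf9 was at 130.7 FPKM and Tma16 at 33.7 FPKM. For Bpifa1 they were Pgap2 (r = 0.989), which works on lipid anchors of membrane proteins, and the prostaglandin E synthase gene Ptges (r = 0.983). For Sftpd they were the splicing kinase gene Clk2 (r = 0.965) and the lysosomal channel gene Tmem175 (r = 0.954). The 4 genes most like Bpifa1 and Sftpd were highest in Con_253, as were Bpifa1 and Sftpd. With 6 points and so many candidates such values describe these libraries only.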

How the data were processed

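The authors deposited 1 table of FPKM per library. The tools named are Cufflinks and Bowtie2 2.2.5, with build mm10, per the submitters' processing notes. The file headers call the value only "exp", and it is read as FPKM because Cufflinks writes that unit. The Cufflinks version, annotation, strand and any scaling between libraries are not given in the sources used here. Per the labels' protocols, the whole transcriptome was amplified from cDNA before library preparation, which can favour transcripts by length and base composition. The tables (25025 rows, 20468 symbols) hold no counts, so precision is limited by the 3 libraries per group. Rows of 1 symbol were summed, and 44 rows whose symbols had become dates were left out, which left 20443 genes. Starts were raised by 1 base.

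A mean of 0.5 FPKM or more was required for testing. The test was limma 3.58.1 on log2(FPKM + 1) (R 4.3.3; lmFit, eBayes with trend, 2-sided, Benjamini-Hochberg over 15720 genes). Called means an adjusted p under 0.05. The procedure was tested on simulated data. There it called 47 of 100 genes with a log2 change of 1, 93 of 100 with a change of 2, and 6 of 15520 with none. A change of 1 can thus be missed. No replicate numbers are shared, so nothing was paired. The members and lists were chosen with earlier results of these data known. Named are all members, Kdm6b, the 2 genes with the smallest p in each other list, and the 2 genes most like each family's most abundant member. Neighbouring genes, other factors and the ratios were added after values were seen.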

Additional observations from a re-analysis of the deposited data

How the results depend on the processing

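Over 15 alternatives at most (pseudocount 0.1, 2 filters, quantile normalization, median centring, arrayWeights, the highest row of a symbol, each library left out, Con_253 and cKO_265 left out together, and equal summed FPKM, the last chosen after seeing the data), Scgb1a1, Scgb3a1, Bpifa1, Bpifa2, Sftpa1 and Sftpb kept their direction in each. Scgb3a1 ranged from -1.32 to -0.73 and Scgb1a1 from 0.36 to 1.11, Bpifa1 from -0.49 to -0.02, Bpifa2 from -0.90 to -0.23, Sftpa1 from -0.58 to -0.16 and Sftpb from -0.66 to -0.15. The sign turned for Sftpd under arrayWeights (0.0075) and over single omissions (-0.235 to 0.0922), for Sftpc over single omissions (-0.197 to 0.421), and for Scgb3a2 without Con_253 and cKO_265 (-0.0706). Signs also turned for Cd40 (-0.147) and Alas2 (0.23) with the highest row, and for Dcpp1 under arrayWeights (-0.0518).

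Members called numbered 2 under arrayWeights (Scgb1a1 and Scgb3a1), which gave Con_261 a weight of 8.72 against 0.263 to 2.01 for the others and called 3025 genes in all, 18 of them in the 4 lists of related genes. Equal summed FPKM moved the median of all genes from -0.04 to -0.30 and called 1 member (Scgb3a1) and 1 related gene (Elf3), with 10 genes higher and 197 lower in all, against 3 and 9 as deposited. Under it Bpifb1 was at -0.00018 and Sftpc at -0.124, but relative to the median of all genes they were at 0.30 and 0.17, against 0.31 and 0.15 as deposited, so neither turned. Scgb3a1 was at -0.99 relative to that median, against -0.85. Genes called in all numbered 4 without a filter, 18 under quantile normalization, 2 without each of the controls in turn, 23 without cKO_262 and 19 without cKO_265, and 8 without Con_253 and cKO_265; in each of these 0 members were called.

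Members lower without overlap numbered 5 with equal summed FPKM (29.5% of all genes) and 0 of the 4 left by a mean of at least 5 FPKM, which removes Scgb3a1, Bpifa2 and Sftpa1; over single omissions they numbered 3 to 5, the 5 without cKO_263 (16.8% of all genes, and 14.1% to 21.3% over the other omissions). Members higher without overlap numbered 1 under median centring (14.1% of all genes) and 0 to 2 over single omissions (2 without cKO_262, 15.8%; 1 without Con_261, 11.6%; 1 without Con_264, 14.5%). Deficient minus control, summed FPKM with equal totals was -52.8 for the BPI-fold genes and -19.01 for the surfactant genes; over single omissions it was -17.9 to -0.505 and -6.40 to 1.71. Medians of the related lists ranged from -1.91 to -0.07 (secretoglobins), -0.33 to -0.04 (surfactant processing) and -0.60 to -0.20 (transcription factors). The cause of the other changes was not tested. No paired analysis was possible because the groups share no replicate numbers.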
